A study of Mus musculus with 12 samples.

Results

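The values of 4 mouse genes were followed through the comparison of aged with young oocytes: Cep120 and Cntln, which encode centriole proteins, Pcnt, which encodes a scaffold of the centrosome, and Tubb4b, which encodes a beta-tubulin. The genes were picked because earlier results of these data had placed Cep120, Cntln and Pcnt low and Tubb4b high in aged oocytes, so their ratios of aged over young are given as a description, with no test. Their probes were found by gene symbol in the platform annotation: 13 of the 22575 probes list a member, 11 of them with no other gene. Cep120 and Cntln had 1 such probe each, Pcnt had 2 and Tubb4b had 7, and 2 further probes list Cep120 or Tubb4b together with another gene.

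The series holds 12 two-colour arrays, each with total RNA of aged mouse oocytes in one fluorescent dye (Cy5 or Cy3) and of young mouse oocytes in the other. Aged RNA 1 was set against young RNA 1 (pair 1), aged RNA 2 against young RNA 5 (pair 2) and aged RNA 3 against young RNA 2 (pair 3). Each pair was run on 4 arrays, from 2 labellings with the dyes both ways round, and these 4 arrays count as 1 replicate. The word labelling is a reading of the labels, which say only probe1 and probe2 and do not state which step was repeated. The labels state no strain, age, maturation stage or number of animals, and do not say that the RNAs are of separate animals, so spreads between pairs may be technical.

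Ratios of aged over young oocytes are given on the log2 scale, relative to the median of each array, and hold no expression level. They rest on reading the deposited values as ratios of Cy5 over Cy3, which is likely but stated by no source, and with the opposite convention every sign changes. If the values were instead already turned to aged over young, the means of Cep120, Cntln and Pcnt would be 0.31, 0.057 and 0.078, and that of Tubb4b 0.094. The median of all named genes would then be 0.093. Presence of oocyte markers could not be checked on ratios. Array medians lay between -0.017 and 0.0071 in pairs 2 and 3 on the log2 scale and between -1.05 and 0.17 in pair 1, and the SD of an array over all probes ran from 0.39 to 1.23. Over all probes, arrays of opposite dye correlated at a mean r of -0.19 in pair 1, 0.094 in pair 2 and 0.17 in pair 3 before turning, so that only pair 1 had the negative sign of a dye swap.

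A centrosome is built from paired centrioles, which are cylinders of microtubules, inside a cloud of pericentriolar material that nucleates new microtubules through gamma-tubulin. Microtubules themselves are polymers of alpha-tubulin and beta-tubulin, of which mammals have several gene copies each. Mouse oocytes lose their centrioles during their development in the ovary and build the meiotic spindle from microtubule organizing centres that hold pericentriolar proteins without centrioles.

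Cep120, a protein needed for centrioles to reach their full length, had the widest spread over arrays of the 4 genes. In pair 1 it lay at -0.025 and -0.34 on the arrays with aged RNA in Cy5 (labellings 1 and 2) and at -1.37 and -1.70 with it in Cy3. In pair 2 the same order of arrays gave -1.08, -0.87, -1.13 and -1.25, and in pair 3 it gave -0.51, -0.39, -0.76 and -0.76. All 12 values were below 0, and in each pair the arrays with aged RNA in Cy3 lay lower than those with it in Cy5. The pair values of -0.86, -1.08 and -0.60 gave a mean of -0.85 ± 0.24 (SD, n = 3 pairs), 1.80-fold lower in aged oocytes.

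Cntln, also called centlein, is a centriole protein of the linker that holds paired centrioles together. It lay at -0.80 and -0.76 with aged RNA in Cy5 and at -1.39 and -1.17 with it in Cy3 in pair 1. In pair 2 the 4 arrays gave -1.09, -0.94, -0.82 and -1.02, and in pair 3 they gave -0.82, -0.36, -0.51 and -0.54. Again the 12 arrays were all below 0, and the SD within pairs, 0.22, was smaller than the 0.48 of Cep120. The pair values were -1.03, -0.97 and -0.56, with a mean of -0.85 ± 0.26 (SD, n = 3 pairs), or 1.80-fold lower in aged oocytes.

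Pcnt encodes pericentrin, which anchors gamma-tubulin complexes in the pericentriolar material and is found at the organizing centres of the mouse oocyte spindle. Averaged over its 2 probes it lay at -0.21 and -0.26 with aged RNA in Cy5 and at -1.01 and -1.19 with it in Cy3 in pair 1. The 4 arrays of pair 2 gave -0.80, -0.53, -0.36 and -0.50, and those of pair 3 gave -0.56, -0.45, -0.21 and -0.47. Every array was below 0, and the dye orientation that lay lower in pair 1 lay higher on average in pairs 2 and 3. The pair values of -0.67, -0.55 and -0.42 gave a mean of -0.55 ± 0.12 (SD, n = 3 pairs), or 1.46-fold lower in aged oocytes.

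Tubb4b encodes a beta-tubulin isotype made in many tissues and lay on the other side. Averaged over its 7 probes it lay at 0.59 and 0.84 with aged RNA in Cy5 and at 0.30 and 0.27 with it in Cy3 in pair 1. The 4 arrays of pair 2 gave 0.63, 0.76, 0.92 and 0.60, and those of pair 3 gave 0.89, 1.11, 0.97 and 0.64. All 12 values were above 0. The pair values of 0.50, 0.73 and 0.90 gave a mean of 0.71 ± 0.20 (SD, n = 3 pairs), or 1.64-fold higher in aged oocytes.

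Of the 3026 named genes with a value on all arrays, 1.09% lay below 0 on every array and 0.43% lay above 0 on every array. Since the members were chosen from this contrast, nothing is read from their places in these shares.

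**Figure D1:**
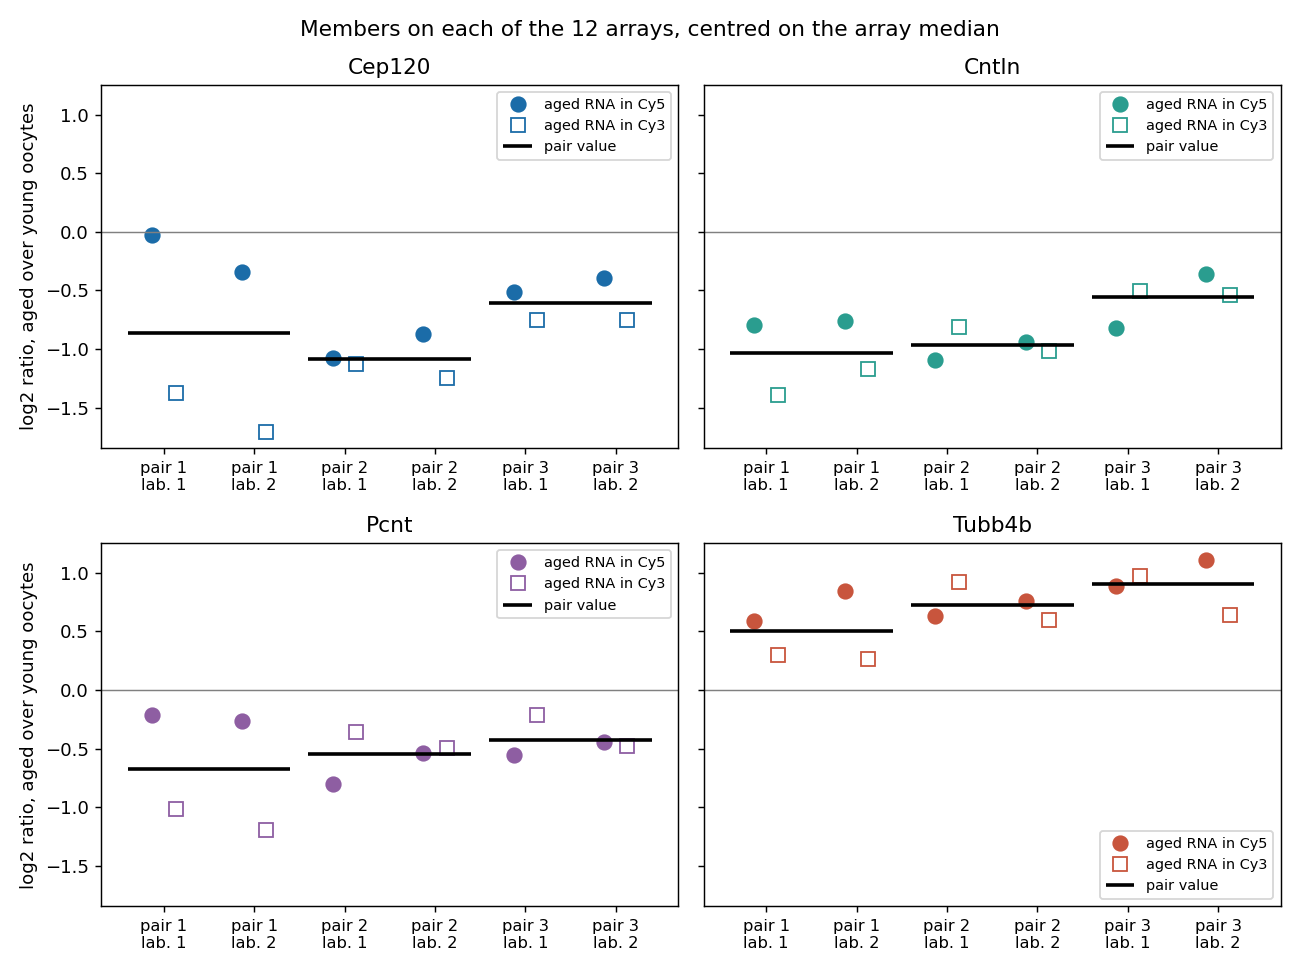
The log2 ratio of aged over young oocytes (vertical axis) of Cep120, Cntln, Pcnt and Tubb4b on each array, by RNA pair and labelling (lab.), with filled circles for aged RNA in Cy5, open squares for aged RNA in Cy3 and bars for the pair value. All 12 points lie below 0 for Cep120, Cntln and Pcnt and above 0 for Tubb4b, and in pair 1 the circles lie above the squares for all 4 genes.

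The probes of a gene did not always give its mean. Both probes of Pcnt lay below 0, probe 9208 at -0.46 ± 0.16 and probe 14466 at -0.63 ± 0.11 (SD, n = 3 pairs each), the first on 10 of 12 arrays and the other on all 12. Over the 12 arrays they correlated at r = 0.60. Among the 837 genes with several fully measured single-gene probes the median correlation between probes was 0.10, with quartiles of -0.16 and 0.39, and the probes of 49.1% of these genes shared 1 sign. Such correlations compare probes on the same arrays and are given as a description.

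Tubb4b was the only one of those genes with 7 probes, and its probes fell into sets that were defined after their values were seen. Over all 7 probes the mean correlation between probes was 0.26, and 33.5% of the 837 genes had a higher one. The 5 probes 10242, 10512, 11575, 11666 and 17623 correlated with each other at r between 0.33 and 0.93 over the 12 arrays. They were grouped by these same correlations, so their likeness is built in. Their means ran from 0.63 for probe 11575 to 1.08 for probe 10242, and the average of the 5 was 0.59 in pair 1, 1.06 in pair 2 and 1.11 in pair 3. That is a mean of 0.92 ± 0.28 (SD, n = 3 pairs), a 1.89-fold higher level in aged oocytes. The other 2 probes lay closer to 0, probe 3436 at 0.23 ± 0.31 and probe 9918 at 0.13 ± 0.20 (SD, n = 3 pairs each), both below 0 in pair 2. Their correlations with the 5 ran from -0.62 to 0.63. Probe 9918 carries the same cDNA accession as the 5, whereas probe 3436 carries another. Signal of a tubulin probe can come from several gene copies, because beta-tubulin genes are alike in sequence, and the letters of the probes were not used here.

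The 2 probes that list a member with a second gene differed in mean from the single-gene probes. Probe 6389, listed for Tubb4b and for Akap9, a centrosome scaffold protein related to pericentrin, lay at -1.91 in pair 1, 0.20 in pair 2 and -0.93 in pair 3, a mean of -0.88 ± 1.05 (SD, n = 3). Its sign was that of Tubb4b in pair 2 alone, and its spread was the widest of the 13 probes. Over the 12 arrays it correlated with the 5 alike Tubb4b probes at r between 0.46 and 0.63, and with probes 3436 and 9918 at -0.43 and 0.0033. Akap9 itself, from 2 probes of its own, lay at -0.14 ± 0.30 (SD, n = 3 pairs). Probe 20892, listed for Zfp608 and Cep120, lay at 0.13 ± 0.21 (SD, n = 3 pairs), on 6 arrays below 0 and on 6 above. It correlated with the Cep120 probe at r = -0.46 over the 12 arrays. With this probe counted in, the mean of Cep120 would be -0.36, and that of Tubb4b with probe 6389 would be 0.51.

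**Figure D2:**
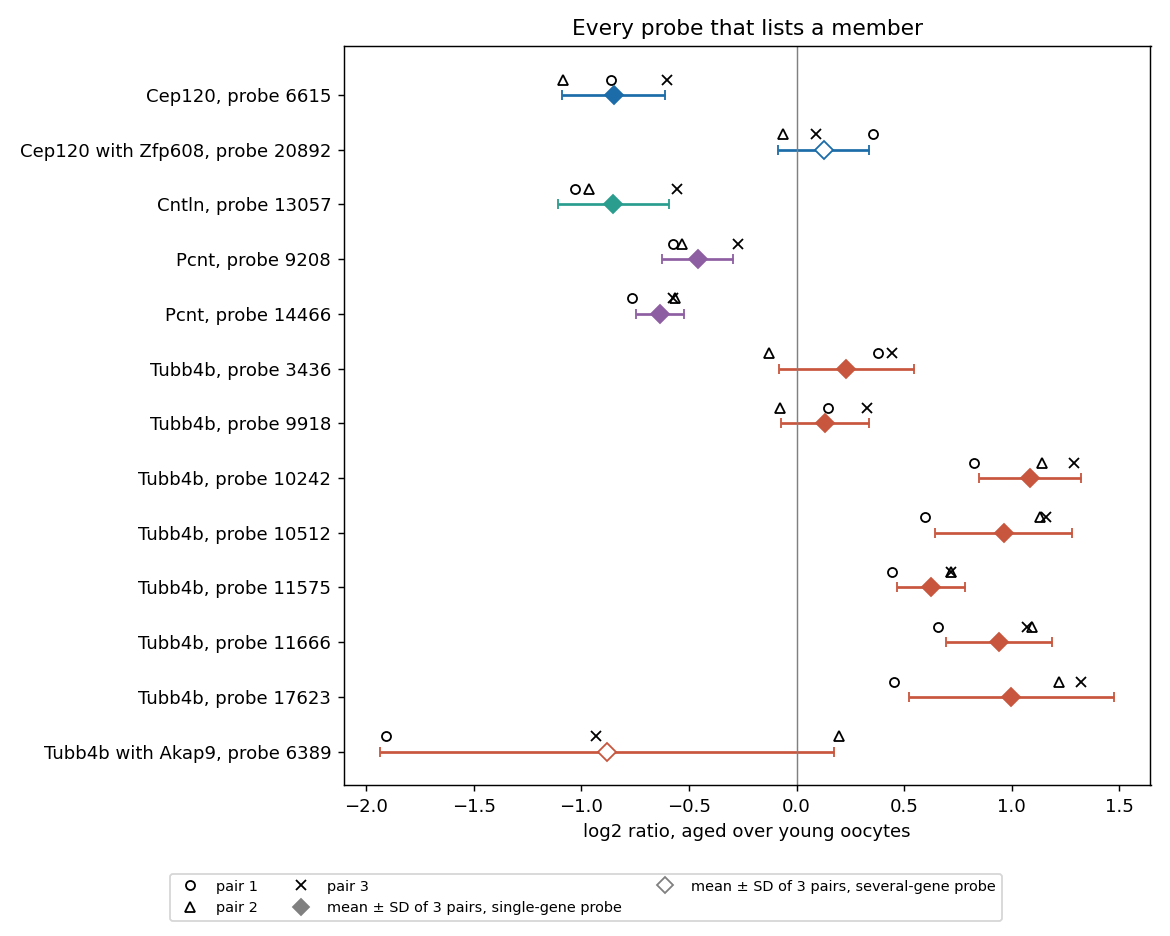
The log2 ratio of aged over young oocytes (horizontal axis) of the 13 probes that list a member, with diamonds and bars for the mean ± SD of 3 pairs, open diamonds for probes listing a second gene, and small black symbols for pairs 1 to 3. The single-gene probes of Cep120, Cntln and Pcnt lie left of 0, 5 probes of Tubb4b lie between 0.63 and 1.08, and 2 lie between 0.13 and 0.23.

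The promoter letters of 3 members, from the RefSeq promoter table of GRCm38.p6, are shown as a description. Those of Cep120, which also lay low, are not shown, and a link between motifs and ratios was not tested. Each line gives the 250 bases before the start of the gene, 5′ to 3′ on the strand of the gene, with capitals for matches to 4 motifs. These are the CCAAT box (CCAAT), the GC box (GGGCGG), the cell cycle element CHR (TTTGAA) and the TATA box (TATAAA), searched on both strands, and no match overlapped another.
Cntln, chr4:84884059-84884308, plus strand: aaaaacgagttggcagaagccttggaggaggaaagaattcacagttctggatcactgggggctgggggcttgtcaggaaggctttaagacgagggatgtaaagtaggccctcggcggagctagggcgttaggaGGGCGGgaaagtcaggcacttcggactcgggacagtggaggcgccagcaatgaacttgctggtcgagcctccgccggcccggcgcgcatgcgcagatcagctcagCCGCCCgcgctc
Pcnt, chr10:76442913-76443162, minus strand: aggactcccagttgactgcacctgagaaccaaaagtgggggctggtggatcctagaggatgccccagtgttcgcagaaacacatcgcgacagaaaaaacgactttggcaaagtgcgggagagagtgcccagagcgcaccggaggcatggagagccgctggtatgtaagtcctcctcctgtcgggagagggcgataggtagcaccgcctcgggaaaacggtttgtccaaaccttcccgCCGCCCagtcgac
Tubb4b, chr2:25224703-25224952, minus strand: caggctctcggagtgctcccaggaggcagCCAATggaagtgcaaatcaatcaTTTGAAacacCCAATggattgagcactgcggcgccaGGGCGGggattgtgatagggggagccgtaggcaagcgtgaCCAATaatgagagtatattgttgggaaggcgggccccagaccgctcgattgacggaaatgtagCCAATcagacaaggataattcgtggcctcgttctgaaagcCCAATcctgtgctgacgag

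The windows of Cntln and Pcnt held GC boxes, 2 in Cntln and 1 in Pcnt, and no match to the other 3 motifs. The window of Tubb4b held 5 CCAAT boxes, 1 GC box and 1 CHR element. Of 32851 promoter windows of this length 33.9% held a CCAAT box, 32.7% a GC box, 16.0% a CHR element and 12.4% a TATA box, and 0.213% held at least 5 CCAAT boxes. A match describes these letters, and no value here measured binding.

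The arrays hold other measurements besides the ratio the genes were chosen by. The part of a value that keeps its sign when the dyes are exchanged was taken per pair as the mean of both orientations in the deposited direction, and is called the dye part. It is the same quantity as the mean under the reading of values already turned to aged over young, so that its name holds only for values of Cy5 over Cy3. For Cep120 it was 0.68 in pair 1, 0.11 in pair 2 and 0.15 in pair 3, averaging 0.31 ± 0.32 (SD, n = 3 pairs), and its 95% interval was -0.079 to 0.70. It was above 0 in all 3 pairs and did not pass (limma over all rows, adjusted p = 0.255). A limma fit of the 12 arrays, with the pair as a block, takes arrays of the same RNAs as separate values. It called 4125 rows for the dye part, Cep120 among them (limma adjusted p = 0.0413).

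Smaller dye parts were found for the other members. That of Cntln was 0.25, -0.049 and -0.032 in pairs 1, 2 and 3, with a mean of 0.057 and a 95% interval of -0.26 to 0.37. Pcnt had 0.43, -0.12 and -0.079, with a mean of 0.078 and an interval of -0.31 to 0.46. Tubb4b had 0.22, -0.030 and 0.097, with a mean of 0.094 and an interval of -0.20 to 0.39. None of these passed (limma adjusted p = 0.788, 0.759 and 0.623 for Cntln, Pcnt and Tubb4b). With centring the dye part was highest in pair 1 in every member, and without it pair 1 was highest for Cep120 (0.36) and Pcnt (0.11) and lowest for Cntln (-0.068) and Tubb4b (-0.10). Over all named genes the median dye part was 0.093, and 36.8% lay below 0. Across the table limma called 0 of 21370 rows for the dye part (0%), with 5570 at an unadjusted p under 0.05, while the fit of 12 arrays called 4125.

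The mean ratios with the 2 labellings lay close together, and both enter the ratio that the members were chosen by. Cep120 lay at -0.81 ± 0.26 with labelling 1 and -0.89 ± 0.27 with labelling 2, and Cntln at -0.90 ± 0.22 and -0.80 ± 0.30. Pcnt lay at -0.53 ± 0.12 and -0.57 ± 0.14, and Tubb4b at 0.72 ± 0.25 and 0.70 ± 0.16 (SD, n = 3 pairs each). The differences, labelling 2 minus labelling 1, were -0.073, 0.10, -0.042 and -0.014 for Cep120, Cntln, Pcnt and Tubb4b. Their 95% intervals ran from -0.52 to 0.37, from -0.32 to 0.53, from -0.46 to 0.38 and from -0.44 to 0.41, so differences within these bounds cannot be told from 0. Over single pairs the differences of the members ran from -0.32 (Cep120, pair 1) to 0.21 (Cntln, pair 3). No member passed (limma adjusted p between 0.969 and 0.996), and none of the 20450 rows was called (0%), with 582 at an unadjusted p under 0.05 and 0 in the fit of 12 arrays.

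**Figure D3:**
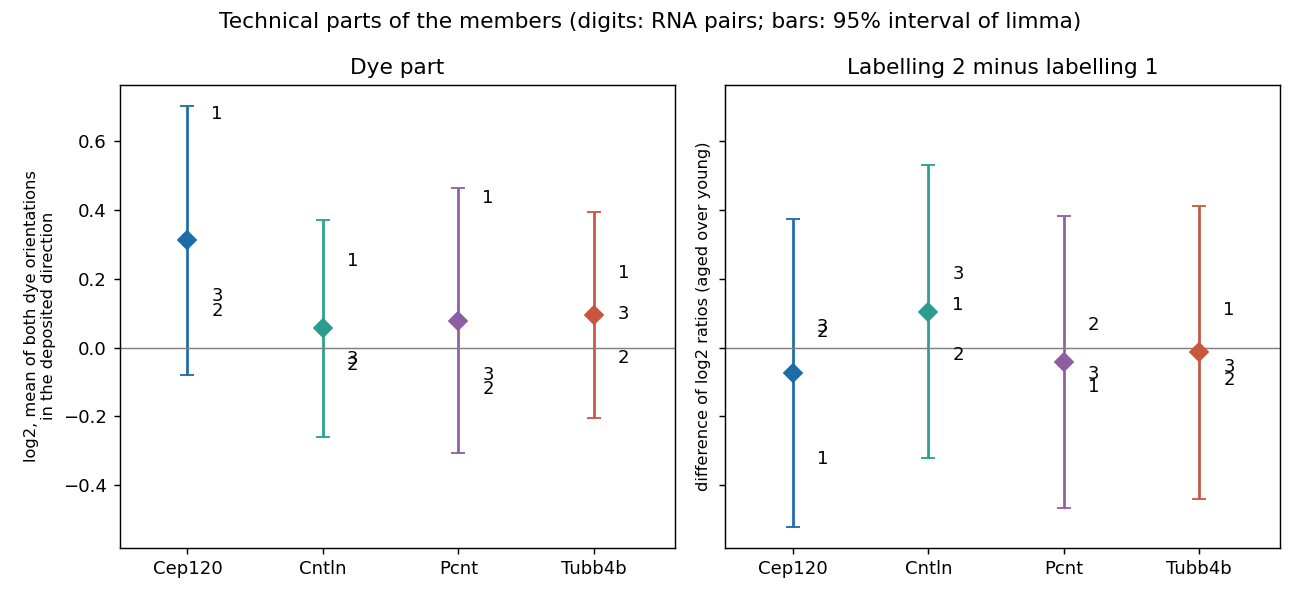
The dye part (left, log2, deposited direction) and the difference between labellings (right, log2 ratio with labelling 2 minus that with labelling 1) of the 4 members, with diamonds and bars for the mean and 95% interval of limma over 3 pairs and digits for the value of each pair. All 8 intervals include 0, and in these centred values the digit 1 stands highest for every member in the dye part, at 0.68 for Cep120, whereas without centring pair 1 is lowest for Cntln (-0.068) and Tubb4b (-0.10).

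Centring weighed on the members in pair 1, where the array with labelling 1 and aged RNA in Cy5 had a median of -1.05. Without centring the pair 1 value of Tubb4b was 0.16, against 0.50 with it, and that of Pcnt was -1.01, against -0.67. For Cep120 it was -1.20, against -0.86, and for Cntln -1.37, against -1.03, so each member lay lower without centring. Cep120 lay without centring on that array at -1.07 in place of -0.025, and its 4 arrays of pair 1 ran from -1.87 to -0.61. The SD of these 4 arrays was 0.52 without centring and 0.80 with it, and for Pcnt it was 0.38 and 0.51. For Cntln and Tubb4b centring acted the other way, with SDs of 0.34 and 0.46 without it and 0.30 and 0.27 with it. Tubb4b lay at -0.46 on that array without centring, the only array where it was below 0. The dye part of Cep120 in pair 1 was 0.36 without centring, against 0.68 with it. In pairs 2 and 3, where the medians lay between -0.017 and 0.0071, each member had nearly the same pair value either way, such as -1.09 without and -1.08 with centring for Cep120 in pair 2.

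**Figure D4:**
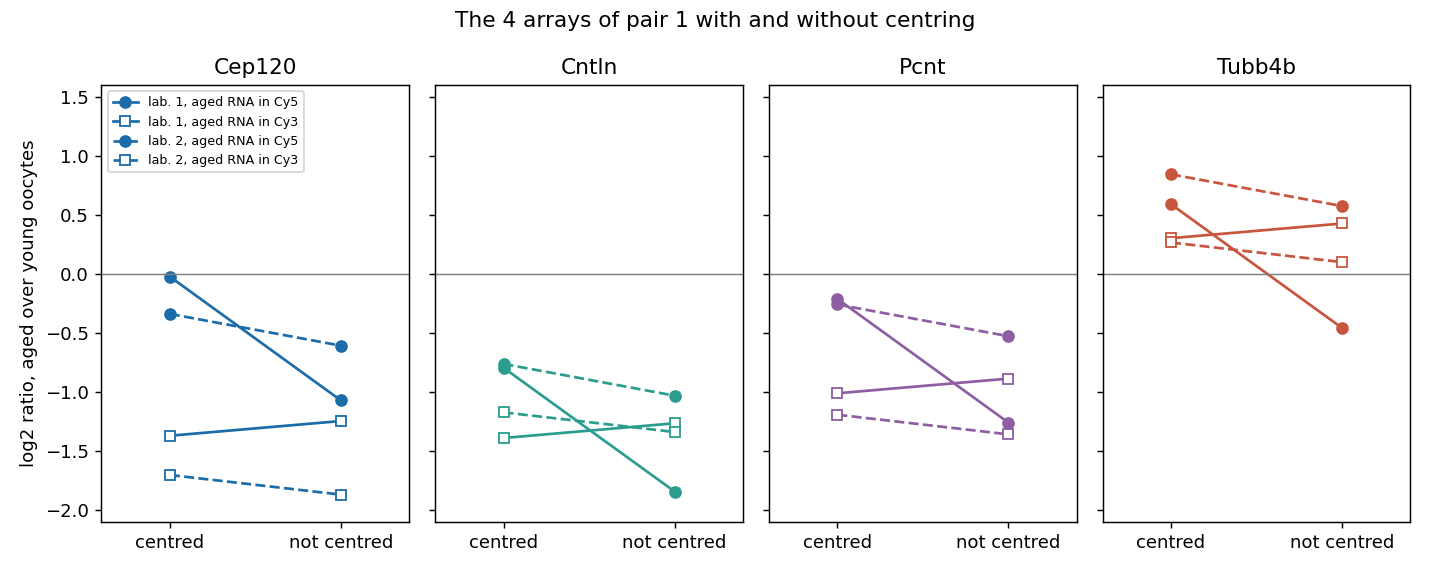
The log2 ratio of aged over young oocytes (vertical axis) of each member on the 4 arrays of pair 1, centred on the array median (left points) and not centred (right points), with solid lines for labelling 1, dashed lines for labelling 2, filled circles for aged RNA in Cy5 and open squares for aged RNA in Cy3. The solid line with circles shifts by 1.05, to -1.07 for Cep120 and to -0.46 for Tubb4b.

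The members differed in how closely they moved together over the 12 arrays once turned to aged over young. Among the 4, Cntln and Tubb4b correlated at r = 0.82, Cep120 and Pcnt at r = 0.78, Cntln and Pcnt at r = 0.74, Pcnt and Tubb4b at r = 0.74, Cep120 and Cntln at r = 0.67 and Cep120 and Tubb4b at r = 0.60. Within pairs, over 4 arrays each, the values differed: Cep120 and Pcnt correlated at 0.99 in pair 1, -0.18 in pair 2 and -0.51 in pair 3. Cep120 and Cntln correlated at 0.87, 0.12 and 0.080 in pairs 1, 2 and 3, and Cntln and Tubb4b at 0.88, 0.93 and 0.39. In pair 1 all 6 member pairs lay between 0.85 and 0.99, so the likeness of Cep120 to Pcnt and Cntln over 12 arrays was not seen within pairs 2 and 3. All these correlations use centred values, and centring shifts every member alike on an array. In pair 1 the array with labelling 1 and aged RNA in Cy5 had a median of -1.05, so a shared shift enters the values of that pair. Correlations without centring are not given. These correlations compare shapes over arrays and not levels, since Tubb4b lay above 0 throughout, and arrays share their dye orientation and RNA. For other genes likeness was computed over the 12 arrays and not within pairs. Among 3025 other named genes, those most like Cep120 were Sdcbp, Tfb1m and Csnk1g3, at r between 0.973 and 0.981. For Cntln they were Edem1, Pibf1 and Mbtps1 (0.912 to 0.919), for Pcnt Senp6, Hat1 and Brd7 (0.945 to 0.955), and for Tubb4b Acsf2, Gatad2b and Ccdc3 (0.905 to 0.929). Correlation with a member exceeded 0.9 for 82 genes in the case of Cep120, 37 for Pcnt and 5 each for Cntln and Tubb4b. In the order of likeness to Cep120, Cntln stood at place 583 and Pcnt at place 317.

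Other genes of the centrosome and the microtubules were taken from lists of gene names and described without the 4 members. Over all 21370 rows limma called 0 (0%) for aged over young, with 1400 at an unadjusted p under 0.05. A fit of the 12 arrays with the pair as random block, which takes arrays of the same RNAs as separate values, called 294. Among named genes 5.34% lay lower and 2.33% higher in aged oocytes at an unadjusted p under 0.05. The median of all named genes was 0.00055, and 49.9% of them lay below 0. None of the 56 measured list genes was called in either direction over the 3 pairs, and the fit of 12 arrays called 3 of them.

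Of 67 listed centriole and satellite genes 7 had a probe of their own, 4 of them below 0, with a median of -0.027 and none at an unadjusted p under 0.05. Pcm1, the scaffold of centriolar satellites, lay at 0.21 ± 0.15, from probes at 0.55, -0.26 and 0.34. Cep97, which caps centrioles and restrains cilium growth, lay at 0.18 ± 0.16, Cep57 at -0.21 ± 0.24 and the deubiquitinase Usp33 at -0.20 ± 0.13 (SD, n = 3 pairs each). The probes of Usp33 lay at 0.022 and -0.43, and those of Cep97 at 0.080 and 0.28. All 7 gene means lay between -0.21 and 0.21.

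Among pericentriolar and gamma-tubulin genes 9 of 39 were measured, 7 of them below 0, with a median of -0.14. With arrays scaled to the same spread, with labelling 1 only or without replicate 1, 5 of the 9 lay below 0. At an unadjusted p under 0.05, 2 genes lay lower. These were Cep55, a centrosome protein that acts in the final separation of dividing cells, at -0.85 ± 0.30, and Tpx2, a spindle assembly factor that activates Aurora A, at -0.52 ± 0.11 (SD, n = 3 pairs; limma adjusted p = 0.583 and 0.676). The 2 probes of Tpx2, at -0.57 and -0.46, had 1 sign. Aurka, the Aurora A kinase of spindle poles, lay at -0.27 ± 0.40, and Tubgcp2, a subunit of the gamma-tubulin complex, at 0.31 ± 0.30. Chosen after its values were seen for a closer look, Cep55 lay in pairs 1, 2 and 3 at -0.89, -1.14 and -0.54, close to the -0.86, -1.08 and -0.60 of Cep120. Cep55 was among the 294 rows called by the fit of 12 arrays, which takes arrays of the same RNAs as separate values.

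Of 17 other tubulins 2 were measured. Tubb5, a beta-tubulin of most tissues, lay at -1.18 in pair 1, 0.46 in pair 2 and -0.47 in pair 3, with a mean of -0.40 ± 0.82, so its pairs did not share a sign. Tubd1, the delta-tubulin of centrioles, lay at 0.013 ± 0.024, from probes at -0.25 ± 0.34 and 0.27 ± 0.37 (SD, n = 3 pairs each). The small SD of the gene is thus that of an average of 2 probes with opposite signs.

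Tubulin folding and modification genes had 7 of 42 measured, 6 of them above 0, with a median of 0.27, and 2 lay higher at an unadjusted p under 0.05. Pfdn2, a subunit of the prefoldin that hands new tubulin and actin to the chaperonin, lay at 0.94 ± 0.11, and Atat1, which acetylates alpha-tubulin, at 0.47 ± 0.34 (SD, n = 3 pairs; limma adjusted p = 0.465 and 0.716). The probes of Pfdn2 lay at 1.87 and 0.019. Pfdn1 lay at 0.28 ± 0.31 and Ttll5, a polyglutamylase, at 0.27 ± 0.34. Pfdn2 was among the 294 rows called by the fit of 12 arrays, which takes arrays of the same RNAs as separate values. Without centring 3 of the 7 lay below 0, against 1 with it.

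Motors and microtubule-binding proteins had 22 of 69 measured, 9 below 0 and 13 above, with a median of 0.037. Kif20a, a kinesin of the central spindle, lay lower at an unadjusted p under 0.05, at -0.60 ± 0.46 (SD, n = 3 pairs; limma adjusted p = 0.716). Map2, a microtubule stabilizer best known from neurons, lay at 0.29 ± 0.028, Map7 at -0.40 ± 0.35 and Nusap1, which bundles spindle microtubules, at -0.55 ± 0.82. Without centring 14 of the 22 lay below 0, so the balance of this list turned with the centring.

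Cells other than the oocyte carry centrosomes with centrioles, so markers of cumulus and granulosa cells, which surround the oocyte, are given beside the members. Of 21 listed markers 4 were measured, 3 of them below 0, with means between -0.15 and 0.095. Inhbb lay at -0.15 ± 0.14 and Cyp11a1 at -0.093 ± 0.072 (SD, n = 3 pairs each). The mean of the 4 was -0.034 in pair 1, -0.24 in pair 2 and 0.12 in pair 3. In RNA measured in bulk, fewer cells of a type and less RNA per cell cannot be told apart, and the part of such cells in the ratios of the members was not tested. Of 22 listed oocyte genes 5 were measured, 3 of them below 0, with a median of -0.31 and means between -1.18 and 0.62. At an unadjusted p under 0.05 lay Dppa3, a maternal-effect gene, at 0.62 ± 0.20, and Kit, a receptor that oocytes need to grow, at -0.70 ± 0.36 (SD, n = 3 pairs; limma adjusted p = 0.653 and 0.699). The lowest mean was that of Zp2, a protein of the egg coat, at -1.69, 0.56 and -2.41 in pairs 1, 2 and 3. Kit was among the 294 rows called by the fit of 12 arrays, which takes arrays of the same RNAs as separate values.

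**Figure D5:**
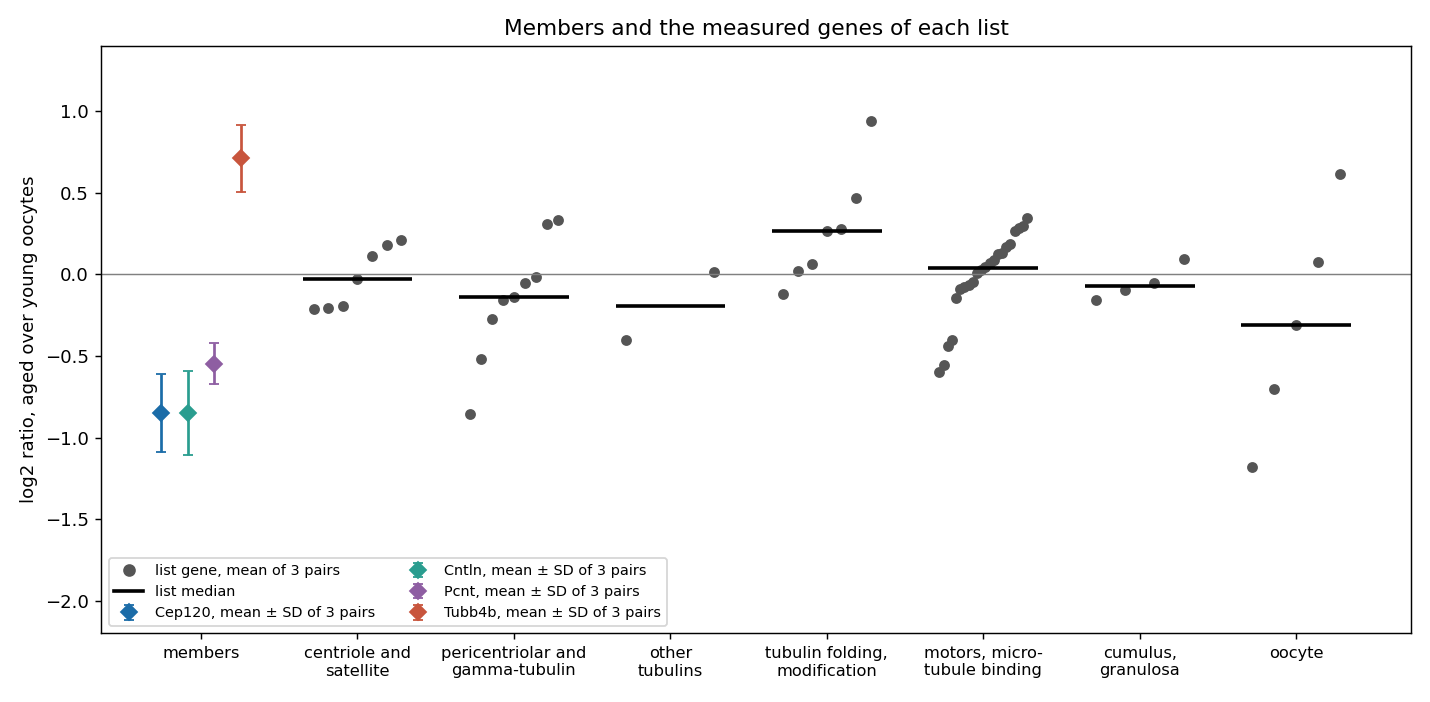
The log2 ratio of aged over young oocytes (vertical axis) of the 4 members (diamonds with bars, mean ± SD of 3 pairs) and of the measured genes of 7 lists (dots, mean of 3 pairs; black bars, list medians). The centriole and satellite genes lie between -0.21 and 0.21, Cep55 lies at -0.85 among the pericentriolar genes, and Pfdn2 lies at 0.94 among the tubulin folding genes.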

How the data were processed

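The authors deposited 1 value per probe and array, taken here as a log10 ratio of the 2 dyes on the evidence of the values. Scanner, background correction and dye normalization were not given by the sources used here, and signals were not used. Precision is limited by the number of RNA pairs. The deposited log10 values ended at -2 and 2; 1215 values on these limits and 513 exact zeros, 0.638% of all, were treated as missing. Values were converted to log2 and centred on each array's median, and arrays with aged RNA in Cy3 were turned. Both dye orientations were averaged with equal weight within each RNA pair. Single-gene probes of a symbol were averaged, naming 3089 genes from 4262 probes; 6822 probes list several genes and 11491 have no gene listed. RefSeq (GRCm38.p6) held the gene ID of 4247 of the 4262, and 0 symbols changed.

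Two-sided limma tests (version 3.58.1, functions lmFit and eBayes; R 4.3.3, version 1.17.8 of data.table) set the mean of the 3 pair values against 0, with Benjamini-Hochberg adjustment over all rows at 0.05, for aged over young, the dye part and the labelling difference. The steps were tested on simulated data. Members, lists and tests were chosen with earlier results of these data known. Named were the members with every probe, 4 genes per list by smallest p (2 for oocyte and cumulus genes, all tubulins), and per member the 3 genes most alike by Pearson r over 12 arrays; Akap9 was added after its values were seen, since it shares a probe with Tubb4b. Alternatives changed centring, scaling, limits, labelling, dye orientation, probe averaging, reading, replicates and the fit.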

Additional observations from a re-analysis of the deposited data

How the results depend on the processing

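Over 14 alternatives the means of Cep120, Cntln and Pcnt kept their sign in 13 and that of Tubb4b in 14. The exception was reading the values as already aged over young, with Cep120 at 0.31, Cntln at 0.057 and Pcnt at 0.078, and Tubb4b at 0.094. Under that reading the median of all named genes was 0.093. All 12 centred array values of each member lay on 1 side of 0, so settings that only left out arrays could not change the sign. Cep120 moved by more than its SD with aged RNA in Cy5 only (-0.54), in Cy3 only (-1.16), and with its several-gene probe counted (-0.36). Leaving out a replicate gave -0.97 to -0.73 for Cep120, -0.999 to -0.761 for Cntln, -0.61 to -0.49 for Pcnt and 0.61 to 0.82 for Tubb4b. The median of probes gave 0.87 for Tubb4b. Leaving out the array of widest spread, chosen after seeing the data, moved no member by its SD (Cep120 to -0.82). Calls for aged over young numbered 13 without centring, 1 among named genes alone, 0 to 42 with a replicate left out (42 without replicate 1) and 294 with the replicate block on 12 arrays, which takes arrays of the same RNAs as separate values. Calls for the dye part numbered 0 to 4886 with a replicate left out (4886 without replicate 1) and 4125 with the replicate block. Among the members only Cep120, with that block, then passed (limma adjusted p = 0.0413; range over its alternatives 0.0413 to 0.517). The cause of these shifts was not tested. Signal over background is unknown, so dim probes could not be left out.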

Other observations

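Of the 56 measured list genes 20 (35.7%) had 1 sign in all 3 pairs, against 32.7% of all 3089 named genes, a difference that was not tested. Each of the 3 pairs stood alone in sign for 12 of the 56 (21.4%), whereas over all named genes pairs 1, 2 and 3 stood alone for 20.8%, 20% and 26.4%. Some list genes of cell division spread widely between pairs. Prc1, which bundles microtubules of the central spindle, lay at 0.0090 in pair 1, -1.37 in pair 2 and 0.046 in pair 3. Aspm, a protein of spindle poles, lay at -0.92, 0.48 and -0.14, and Stmn1, which destabilizes microtubules, at 1.32, -0.015 and -0.28. Tbcb, a tubulin folding cofactor, lay at 0.75, -0.0067 and -0.67. These 4 genes were chosen after their values were seen, for their spread.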
